A study of Mus musculus with 8 samples.

Results

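Bile acid synthesis and transport were followed through 10 genes in the livers of Pus1 mutant and wild-type mice. The genes were Cyp7a1, Cyp8b1, Cyp7b1, Cyp27a1, Baat, Abcb11, Slc10a1, Slco1a1, Slco1b2 and Nr0b2. They were found by matching the RefSeq accession of each array probe to these symbols, which gave 11 of the 55681 probes and 10 of the 36983 genes or unnamed transcripts on the array. All 10 passed the filter on dim probes, as did 17510 genes or unnamed transcripts in all. Pus1 encodes a pseudouridine synthase, an enzyme that turns uridine into pseudouridine in tRNAs and other RNAs. The livers came from 4 homozygous Pus1 mutants and 4 wild-type mice, with 2 females and 2 males of each genotype. The mice were 14 to 16 weeks old and of the C57BL/6J strain, to which they had been backcrossed for 5 generations. The build of the mutant allele and the hour at which livers were taken are not given in the sources used here. Each of 4 2-colour arrays of 1 slide carried a mutant and a wild-type liver of the same sex, so a mutant and a wild type with the same number shared an array. Arrays 1 and 2 held females and arrays 3 and 4 males, and the mutant was labelled with Cy5 on arrays 1 and 3.

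Hepatocytes make bile acids from cholesterol. In the classic route CYP7A1 adds the first hydroxyl group, and CYP8B1 adds the one that makes cholic acid. In the alternative route CYP27A1 oxidises the sterol side chain, and CYP7B1 acts on side-chain oxidised sterols. BAAT joins the products to taurine or glycine, ABCB11 pumps them into bile, and SLC10A1 and the SLCO transporters take them back up from blood. NR0B2, also called SHP, is a repressor that the bile acid receptor FXR induces and that lowers Cyp7a1 and Cyp8b1.

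The RefSeq promoter table (GRCm38.p6) held 7 of the 10 genes. The 250 bases before the start are shown for Cyp8b1 and Slco1a1, the 2 of these 7 whose levels ranged most widely over the 8 livers (2.44 and 4.09 on the log2 scale). They are read 5′ to 3′ along the gene, at chr9:121916306-121916555 (minus strand) for Cyp8b1 and chr6:141946963-141947212 (minus strand) for Slco1a1. Capitals mark matches, on either strand, to 4 motifs that were searched. These were CAAAGTCCA of the hepatocyte factor HNF4A, AAGGTCA of the extended half-site that NR5A2 and other nuclear receptors bind, the D-box TTATGTAA of the clock output factors DBP and TEF, and the TATA box TATAAA.
Cyp8b1: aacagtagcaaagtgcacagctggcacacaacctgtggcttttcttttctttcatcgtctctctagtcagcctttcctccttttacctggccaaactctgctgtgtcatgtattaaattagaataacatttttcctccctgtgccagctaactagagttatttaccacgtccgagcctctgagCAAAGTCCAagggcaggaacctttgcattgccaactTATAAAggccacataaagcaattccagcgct
Slco1a1: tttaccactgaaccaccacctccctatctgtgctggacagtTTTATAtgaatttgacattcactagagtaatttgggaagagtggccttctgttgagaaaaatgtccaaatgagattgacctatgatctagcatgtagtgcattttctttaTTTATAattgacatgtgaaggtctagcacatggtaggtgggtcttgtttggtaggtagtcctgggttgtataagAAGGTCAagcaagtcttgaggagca
The Cyp8b1 promoter holds CAAAGTCCA at positions -67 to -59 from the start, a run of letters found in 0.384% of 32851 promoters, and TATAAA at -31 to -26. The Slco1a1 promoter holds AAGGTCA at positions -25 to -19 (4.08% of promoters) and the TATA letters on the opposite strand at 2 places. TATAAA was present in 5 of the 7 promoters and in 12.4% of all promoters, counting either strand and any place in the 250 bases. On the strand of the gene it lay at -31 to -26 in Cyp8b1 and -28 to -23 in Nr0b2. In Slco1b2 it lay further off, at -234 to -229 and -227 to -222. In Slc10a1 and Slco1a1 it was on the opposite strand only, so the count does not describe TATA boxes in their usual place. The D-box letters were in 0 of the 7 and in 0.819% of all. None of these 4 motifs overlap in the sequences shown, and a match describes letters, not binding.

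Between 36.8% and 44.0% of spots were well above background in a liver, with females at 42.2% to 44.0% and males at 36.8% to 37.9%. Pus1 read 8.46, 8.92, 8.45 and 8.82 on the log2 scale of normalized intensity in wild types 1 to 4 and 6.32, 6.81, 6.63 and 6.75 in mutants 1 to 4. Its probe was well above background in every wild type and in 0 of 4 mutants, so that only a bound can be given, at least 4.10-fold lower in mutants. The adjusted p of 0.0549 (limma) missed the threshold of 0.05. The log2 ratio was -4.36 with Agilent's processed signals and -4.41 in the authors' series matrix. Whether the probe lies in the part that the mutation changes is not known here. The Y-linked genes Ddx3y and Eif2s3y were detected above background in all 4 males and in 0 females. Kdm5d and Uty, also Y-linked, were above background in 0 livers of either sex. The X-linked Xist was above background in 4 females and 0 males. All 12 hepatocyte markers were above background in all 8 livers, while of 8 markers of intestinal epithelium 6 were above background in 0 livers. Kupffer cell markers, of the resident liver macrophages, had higher fitted ratios in mutants in 10 of 10 cases (median log2 ratio 0.66). At an unadjusted p under 0.05 there were 10 of 10, against 8.92% of all genes, and 0 were called. Their summed level was 14.67 to 15.65 on the log2 scale in wild types and 15.47 to 16.04 in mutants. Of the neutrophil markers 4 were tested, and 4 of 4 had higher ratios in mutants (median log2 ratio 0.96), 3 of them at an unadjusted p under 0.05 and 0 called. In wild types 1 to 4 their summed level was 12.55, 10.65, 13.25 and 15.21. In mutants 1 to 4 it was 12.46, 12.90, 15.35 and 14.04, lower than in the wild type on arrays 1 and 4. Lcn2, 1 of these 4, had ratios of 0.04, 0.97, 2.10 and -1.47 on arrays 1 to 4 (limma unadjusted p = 0.437). In bulk tissue more cells of a type and more RNA per cell cannot be told apart. One liver, wild-type female 2, read above the other 3 females in 7 of 8 genes of the circadian clock and its output. Dbp, a clock output factor, read 8.10, 8.04 and 9.71 on the log2 scale in wild type 1, mutant 1 and mutant 2. It read 14.76 in wild type 2 and 13.45 to 14.77 in the 4 males. Tef, another such factor, read 11.43 to 11.58 in the first 3 of these females, 14.92 in wild type 2 and 13.53 to 14.50 in males. The margin was small for Per1 (12.49 against 10.30 to 12.04), and Nr1d1 lay inside the range of the other females (8.40 against 7.41 to 9.04). Below, the genotype ratio of each of the 10 genes is also given without array 2, which holds wild type 2. The sexes are also compared without wild type 2. No such values are given for the marker and pathway lists.

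No bile acid gene differed between genotypes past the threshold, an adjusted p under 0.05 in limma over all 17510 genes. The count was 0 of 10, against 0% of all genes. At an unadjusted p under 0.05 it was 1 of 10, Slc10a1, against 8.92% of all genes (1562). Of the 10 fitted ratios, 6 were above 0 and 4 below, with a median log2 ratio of 0.02 beside -0.01 over all genes. For each of the 10 the mutant and wild-type ranges overlapped, whereas 2.19% of all genes tested had ranges that did not. The bile acid genes varied widely between livers, with a median SD over the 8 livers of 0.65 on the log2 scale against 0.25 over all genes. Cyp7b1, Cyp7a1 and Slco1a1 lay at the 99.7th, 99.4th and 99.4th percentiles of this SD. Abcb11 and Baat lay at the 27.8th and 31.4th. This SD takes both sexes together. Within females and within males it was 0.28 and 0.19 for Cyp7b1, 0.43 and 1.49 for Cyp7a1, and 1.53 and 0.39 for Slco1a1.

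**Figure D1:**
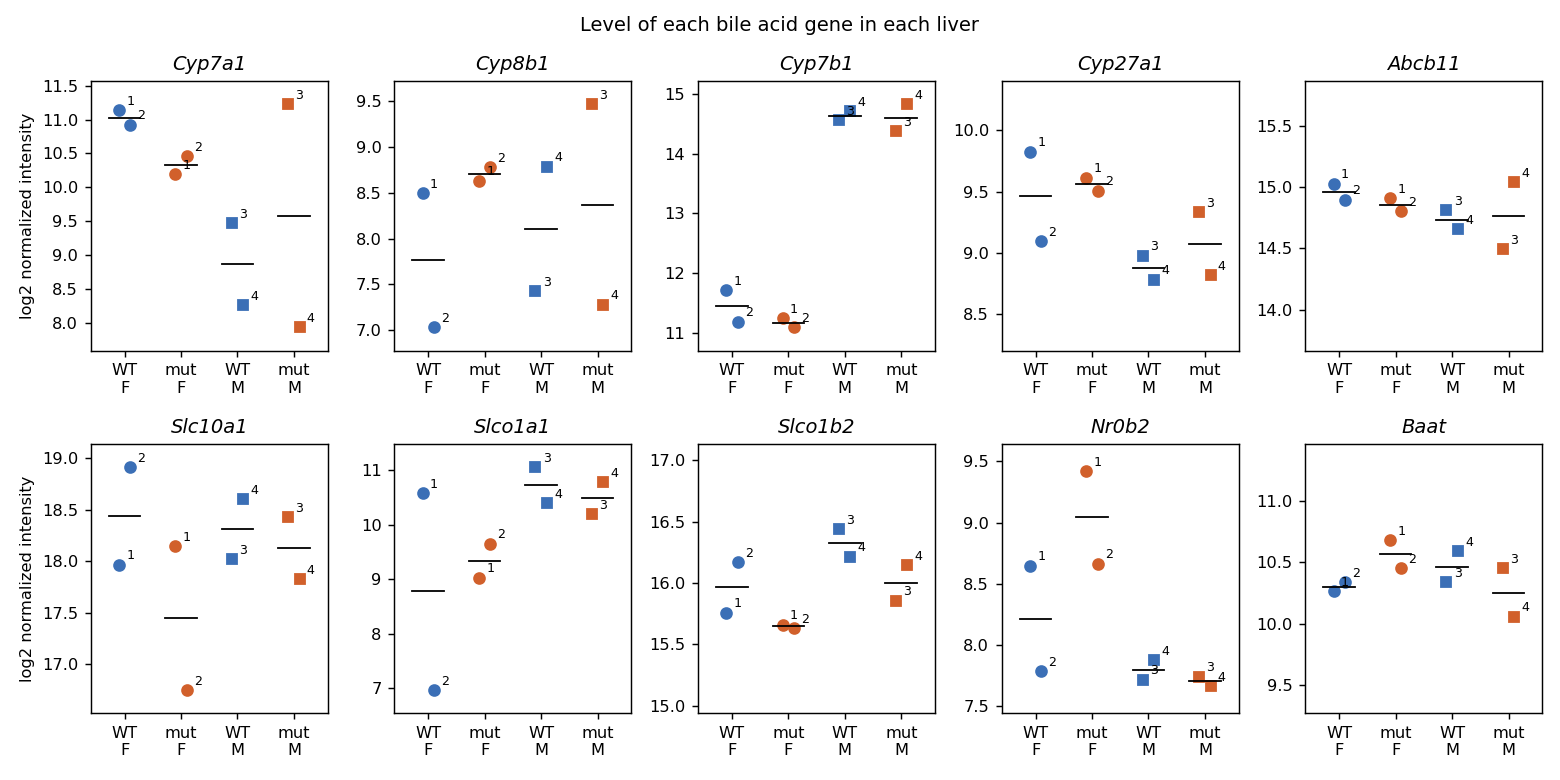
Level of each of the 10 genes in each liver, as log2 normalized intensity on the y axis (each panel has its own range, of at least 2 units). Groups on the x axis are wild type (WT, blue) and mutant (mut, orange), females (F, circles) and males (M, squares), with the replicate number beside each point and a line at the mean of the 2 livers. Cyp7b1 separates the sexes, at 11.09 to 11.71 in females and 14.38 to 14.83 in males.

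Cyp7a1, the rate-limiting enzyme of the classic route, read 11.14 and 10.92 in wild-type females 1 and 2 and 10.20 and 10.46 in mutant females 1 and 2. In males it read 9.47 and 8.26 in wild types 3 and 4, and 11.22 and 7.93 in mutants 3 and 4. The highest and the lowest of the 8 livers were thus both mutant males. The log2 ratios were -0.94 and -0.47 in females and 1.75 and -0.32 in males. The fitted ratio was 0.00 ± 0.42 (SE), a fold of 1.00 with a 95% interval of 0.489 to 2.06 (limma adjusted p = 0.997). Without array 3 it was -0.67, without array 1 it was 0.68 and without array 2 it was 0.04, and none passed.

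Cyp8b1, the sterol 12-alpha-hydroxylase, read 8.49 and 7.03 in wild-type females 1 and 2 and 8.63 and 8.78 in mutant females 1 and 2. It read 7.43 and 8.78 in wild-type males 3 and 4 and 9.47 and 7.28 in mutant males 3 and 4. It was not well above background in wild type 3 and mutant 4, and in the other 6 livers it was. The livers with low values, wild types 2 and 3 and mutant 4, came from both sexes and both genotypes. The log2 ratios were 0.14, 1.75, 2.04 and -1.51 on arrays 1 to 4, and the fitted ratio was 0.61 ± 0.57 (SE) (limma adjusted p = 0.70). Arrays 3 and 4 each set a detected liver against one that was not well above background, so the size of these ratios is uncertain. Without array 2, which holds wild type 2, the sign turned (-0.21).

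Cyp7b1, the oxysterol 7-alpha-hydroxylase of the alternative route, read 11.71 and 11.18 in wild-type females 1 and 2 and 11.25 and 11.09 in mutant females 1 and 2. It read 14.56 and 14.71 in wild-type males 3 and 4 and 14.38 and 14.83 in mutant males 3 and 4. Within each sex the 4 livers lay close together. The mutant over wild-type log2 ratios were -0.46, -0.09, -0.18 and 0.12, and the fitted ratio was -0.15 ± 0.11 (SE), with an interval of 0.742 to 1.09 for the fold (limma adjusted p = 0.622). Without array 2 it was -0.10.

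Cyp27a1, the mitochondrial sterol 27-hydroxylase, was measured by 1 probe printed 10 times on each array, of which 8, 10, 10 and 9 spots were measured on arrays 1 to 4. Its level was 8.78 to 9.83 in wild types and 8.82 to 9.61 in mutants. The mean log2 ratio over spots was -0.21, 0.41, 0.35 and 0.04 on arrays 1 to 4, with an SD over spots of 0.0817, 0.102, 0.0918 and 0.0976. The SD over the 4 arrays, which includes the differences between animals, was 0.29. The fitted ratio was 0.15 ± 0.14 (SE, limma adjusted p = 0.699). It was 0.06 without array 2 and ran from 0.0077 to 0.29 with each array left out, and none passed.

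Baat, which conjugates bile acids, read 10.26 to 10.59 in wild types and 10.06 to 10.68 in mutants. Its ratios were 0.42, 0.11 and 0.12 on arrays 1 to 3 and -0.54 on array 4, and the fitted ratio was 0.03 ± 0.15 (SE, limma adjusted p = 0.958). The 95% interval of the fold was 0.792 to 1.31, and the livers with the highest and the lowest level were both mutants. Without array 2 the ratio was -0.14.

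Abcb11, the bile salt export pump, read 14.65 to 15.03 in wild types and 14.49 to 15.04 in mutants. Its log2 ratios were -0.12, -0.09, -0.32 and 0.38, and the fitted ratio was -0.04 ± 0.12 (SE), with an interval of 0.787 to 1.21 for the fold (limma adjusted p = 0.929). Without array 2 it was 0.08.

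Slc10a1, the sodium-dependent bile acid uptake transporter also called NTCP, had 2 probes that did not agree. The brighter one read 17.96, 18.91, 18.02 and 18.60 in wild types 1 to 4 and 18.15, 16.75, 18.43 and 17.82 in mutants 1 to 4. Its highest and lowest values were both on array 2, and it was saturated in 1 liver, wild type 2. Its ratios were 0.18, -2.16, 0.41 and -0.78, and the fitted ratio was -0.59 ± 0.23 (SE, limma unadjusted p = 0.048, adjusted p = 0.54). The saturated reading of wild type 2 is a lower limit, so the size of the ratio on array 2 and of the fitted ratio is not settled. The dimmer probe, above background in all 8 livers, gave ratios of 0.29, -0.08, 0.51 and -0.38. Both probes gave the same sign on each array, but that on array 2 was near 0 with the dimmer probe. The fitted ratio of the dimmer probe was 0.09 ± 0.11 (SE, adjusted p = 0.788), so the sign turned. Without array 2 the brighter probe gave -0.24 and without array 4 -0.93, and the latter passed (adjusted p = 0.0145), in a fit that called 1517 of all genes.

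**Figure D2:**
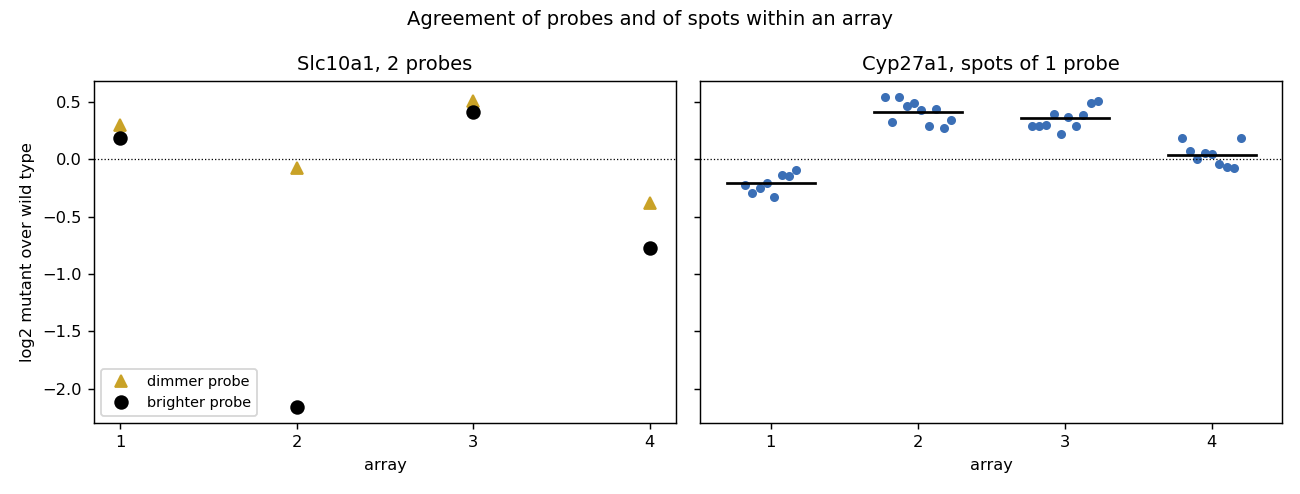
Log2 ratio of mutant over wild type (y axis) on arrays 1 to 4 (x axis) for both Slc10a1 probes (left) and for the measured spots of the Cyp27a1 probe (right, lines at the mean of the spots). The Slc10a1 probes part on array 2 (-2.16 and -0.08), while the Cyp27a1 spots of an array stay together (SD 0.0817 to 0.102).

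Slco1a1, an organic anion transporter of the basolateral membrane, read 10.59 and 6.97 in wild-type females 1 and 2 and 9.03 and 9.66 in mutant females 1 and 2. It read 11.06 and 10.40 in wild-type males 3 and 4 and 10.20 and 10.78 in mutant males 3 and 4. Wild type 2 was the lowest of the 8 livers. The ratios were -1.56, 2.69, -0.87 and 0.38, and the fitted ratio was 0.16 ± 0.37 (SE), with an interval of 0.585 to 2.14 for the fold (limma adjusted p = 0.889). Without array 2 it was -0.42 and did not pass. Without array 4 it was 0.74 and passed (adjusted p = 0.0494), among the 1517 genes of that fit.

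Slco1b2, a second uptake transporter of hepatocytes, was the 1 gene of the 10 with the same sign on all 4 arrays. The share of all genes with the same sign on all 4 arrays is not given here, so this count has no background to be set against. It read 15.76, 16.17, 16.44 and 16.22 in wild types 1 to 4 and 15.66, 15.63, 15.85 and 16.14 in mutants 1 to 4. The ranges overlapped, although each mutant lay below the wild type of its array. The ratios were -0.10, -0.54, -0.58 and -0.07, and the fitted ratio was -0.32 ± 0.14 (SE), 1.25-fold lower with an interval of 0.627 to 1.02 for the fold (limma adjusted p = 0.54). It was -0.21 without array 2 and ran from -0.44 to -0.20 with each array left out, and none passed.

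Nr0b2, the repressor, read 8.65 and 7.79 in wild-type females 1 and 2 and 9.42 and 8.66 in mutant females 1 and 2. In males it read 7.72 and 7.88 in wild types 3 and 4 and 7.74 and 7.67 in mutants 3 and 4. Wild-type female 2 lay within the narrow range of the males, and the other 3 females lay above it. The ratios were 0.77 and 0.88 in females and 0.03 and -0.21 in males, and the fitted ratio over both sexes was 0.37 ± 0.22 (SE, limma adjusted p = 0.578). It was 0.09 without array 2, 0.18 without array 1, 0.55 without array 3 and 0.64 without array 4, and none passed.

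**Figure D3:**
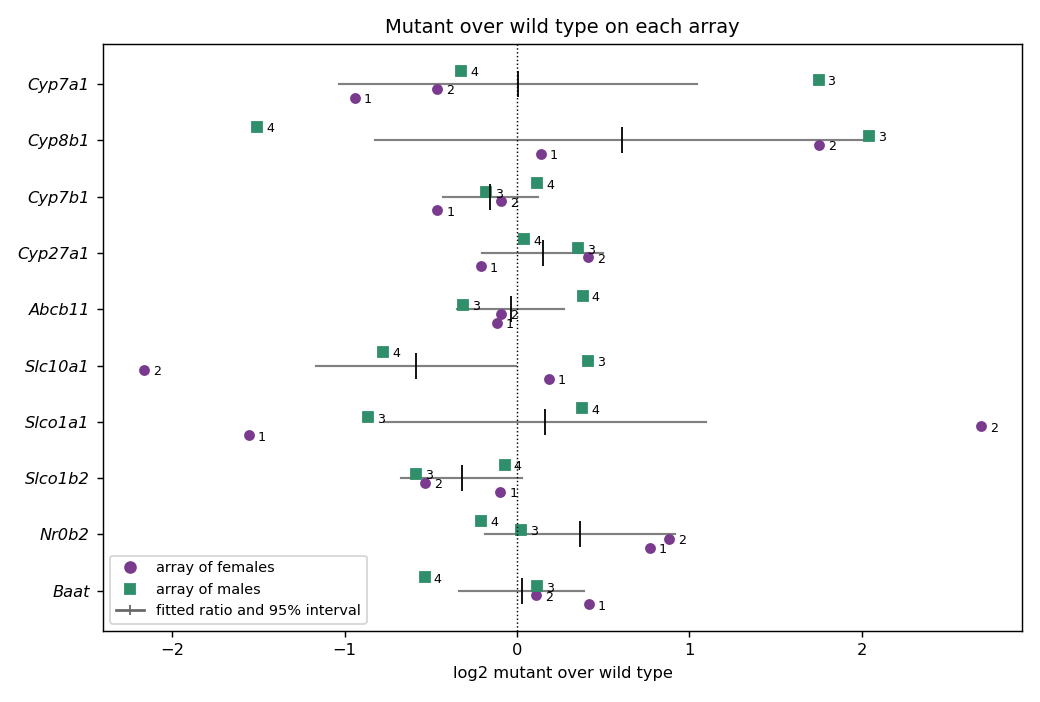
Log2 ratio of mutant over wild type on each array (x axis) for the 10 genes (y axis), with circles for arrays of females, squares for arrays of males and the array number beside each. The black tick and grey line are the fitted ratio and its 95% interval. Slco1b2 is below 0 on all 4 arrays, and Cyp7a1, Cyp8b1, Slc10a1 and Slco1a1 spread over more than 2 log2 units. Slc10a1 is drawn by its brighter probe, and its dimmer probe ran from -0.38 to 0.51.

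Whether the genotype ratio differed between the sexes was tested directly. None of the 10 genes passed in limma (0 of 10, against 0% of all genes), and 1 had an unadjusted p under 0.05, against 5.84% of all genes (1023). That gene was Nr0b2, with a mean log2 ratio of 0.82 in females and -0.09 in males. The difference was 0.92 ± 0.22 (SE, limma unadjusted p = 0.011, adjusted p = 0.823). The female value rests in part on wild type 2, in which Nr0b2 was at the level of the males. On array 1 alone the ratio was 0.77.

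Between the sexes Cyp7b1 differed, and it was the 1 gene of the 10 to pass, against 0.211% of all genes (37 of 17510). Its mean level was 14.62 ± 0.19 (SD, n = 4) in males and 11.31 ± 0.28 (SD, n = 4) in females. The log2 difference was 3.31 ± 0.19 (SE), so that it was 9.93-fold higher in males, with an interval of 7.14 to 13.8 (limma adjusted p = 0.00648). It was also the 1 gene of the 10 whose male and female ranges did not overlap, which held for 24.6% of all genes. With an array left out the difference was 3.14 to 3.48 and passed each time. Over the other alternatives run it was 2.67 to 3.35 and passed in each. The lowest, 6.34-fold, came with median scaling of the arrays, which moved the median of all genes to -0.505.

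At an unadjusted p under 0.05 there were 2 of the 10, against 16.4% of all genes (2876), namely Cyp7b1 and Nr0b2. Nr0b2 had a log2 difference of male minus female of -0.88 ± 0.30 (SE, limma adjusted p = 0.252). Without array 2 it was -1.28 and passed (adjusted p = 0.025), in a fit that called 1245 of all genes. Slco1a1 had a difference of 1.55 ± 1.05 (SE, limma adjusted p = 0.513) and Cyp7a1 one of -1.46 ± 1.05 (SE, adjusted p = 0.539). Slco1a1 passed without array 1 (2.30, adjusted p = 0.00632, 204 genes called) and without array 2 (0.80, adjusted p = 0.0474). Cyp7a1 passed without array 3 (-2.58, adjusted p = 0.0155, 102 genes called), the array of the mutant male with the highest Cyp7a1. The differences of Cyp27a1 (-0.53 ± 0.36 SE), Slco1b2 (0.36 ± 0.33), Slc10a1 (0.27 ± 0.39), Abcb11 (-0.16 ± 0.26), Baat (-0.07 ± 0.17) and Cyp8b1 (0.00 ± 1.64) did not pass. With median scaling Baat (-0.76, adjusted p = 0.0386) and Nr0b2 (-1.36, adjusted p = 0.0388) passed as well, both lying below the shifted median. That fit called 4575 of 17510 genes, 4516 of them lower in males.

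Leaving out wild type 2 alone needs a fit of single livers with no term for the array, which treats livers of 1 array as independent. With all 8 livers this fit called Cyp7b1 only (1 of 10, against 21.3% of all genes). With the 7 other livers it called 5 of 10, against 34% of all genes. These were Cyp7b1 (log2 male minus female 3.25), Nr0b2 (-1.22, adjusted p = 0.00279), Slco1a1 (0.89, adjusted p = 0.00699), Cyp27a1 (-0.69, adjusted p = 0.0224) and Slco1b2 (0.46, adjusted p = 0.0246). The remaining 3 females and the 4 males also differed in Dbp, so sex and the state of the clock output genes cannot be told apart in these 7 livers. Both fits of single livers were chosen after the data were seen. Wild type 2 had the lowest Slco1a1 of all livers (6.97) and a Nr0b2 within the range of the males (7.79). Leaving it out removes these values by choice, so the calls with 7 livers are descriptions only.

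**Figure D4:**
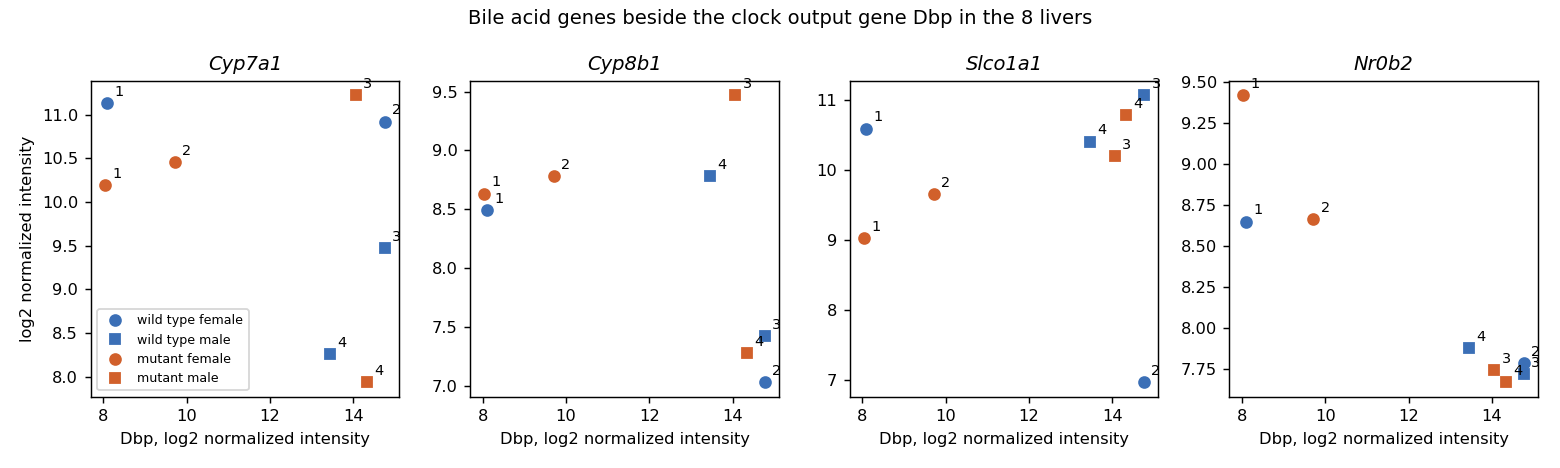
Level of Cyp7a1, Cyp8b1, Slco1a1 and Nr0b2 (y axes) against that of Dbp (x axes), all as log2 normalized intensity, with wild types in blue, mutants in orange, females as circles, males as squares and the replicate number beside each point. Wild-type female 2 has the Dbp level of the males (14.76) and the lowest Cyp8b1 (7.03) and Slco1a1 (6.97) of the 8 livers.

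Wild type 2 did not depart from the other females in the same way for every bile acid gene. For Cyp7b1 it lay with the females (11.18), although its Dbp was at the level of the males. Its Cyp7a1 (10.92) lay within the range of the other females, but also within that of the males (7.93 to 11.22). For Nr0b2 wild type 2 lay with the males (7.79). For Slco1a1 it lay below every other liver. The Dbp log2 ratio of mutant over wild type was -5.05 on array 2, against -0.71 to 0.88 on arrays 1, 3 and 4. Of the 8 clock genes, 6 had their ratio of largest size on array 2, and Nr1d1 and Per1 had it on array 1. The part of the clock genes in the Cyp8b1, Slco1a1 and Nr0b2 values was not tested, nor was that of the Kupffer cell and neutrophil markers.

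The rest of the pathway was described by 3 lists, and no gene of them passed by genotype or by sex. Of 18 other synthesis genes tested of 20 listed, 11 had a ratio above 0 in mutants and 7 below (median log2 ratio 0.08). The 3 with the smallest p were Cyp39a1, an oxysterol hydroxylase (0.35 ± 0.10 SE), Slc27a2, an acyl-CoA synthetase (-0.42 ± 0.17), and Acot8, a peroxisomal thioesterase (0.24 ± 0.10). Cyp39a1 was higher in mutants on all 4 arrays, with ratios of 0.06, 0.58, 0.28 and 0.49, as was Acot8 (0.29, 0.30, 0.22 and 0.14). Slc27a2 had ratios of -0.41, -0.86, -0.48 and 0.06, the largest in size on array 2, which holds wild type 2. Of 17 transport genes tested of 18 listed, 6 were above 0 and 11 below (median -0.06). The smallest p values were those of Ephx1, the microsomal epoxide hydrolase (0.37 ± 0.12 SE), Abcc3, a basolateral efflux pump (-0.39 ± 0.16), and Abcg5, which with its partner exports sterols into bile (-0.52 ± 0.24). The ratios of Abcc3 (-0.04, -1.06, -0.24 and -0.24) and Abcg5 (-0.56, -1.16, -0.64 and 0.27) were also largest in size on array 2. Those of Ephx1 were 0.48, 0.17, 0.24 and 0.60. Of 17 regulators tested of 18 listed, 4 were above 0 and 13 below (median -0.13). Among those with the smallest p were Onecut1, a factor of liver development (-0.49 ± 0.18 SE), and Nr5a2, an activator of bile acid synthesis genes (-0.26 ± 0.10). At an unadjusted p under 0.05 the lists had 1, 1 and 4 genes by genotype, against 8.92% of all genes, and 3, 3 and 0 by sex, against 16.4%. Fgf15, the gut hormone that signals bile acid return to the liver, was above background in 0 livers, as were Ch25h and Slc51a. Cyp2c70, which makes muricholic acids in the mouse, was chosen for mention after its values were seen. Its ratios of -1.44, -0.40, 2.37 and -4.39 had an SD of 2.79, the sign on array 3 being opposite to the others, as for Cyp7a1.

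**Figure D5:**
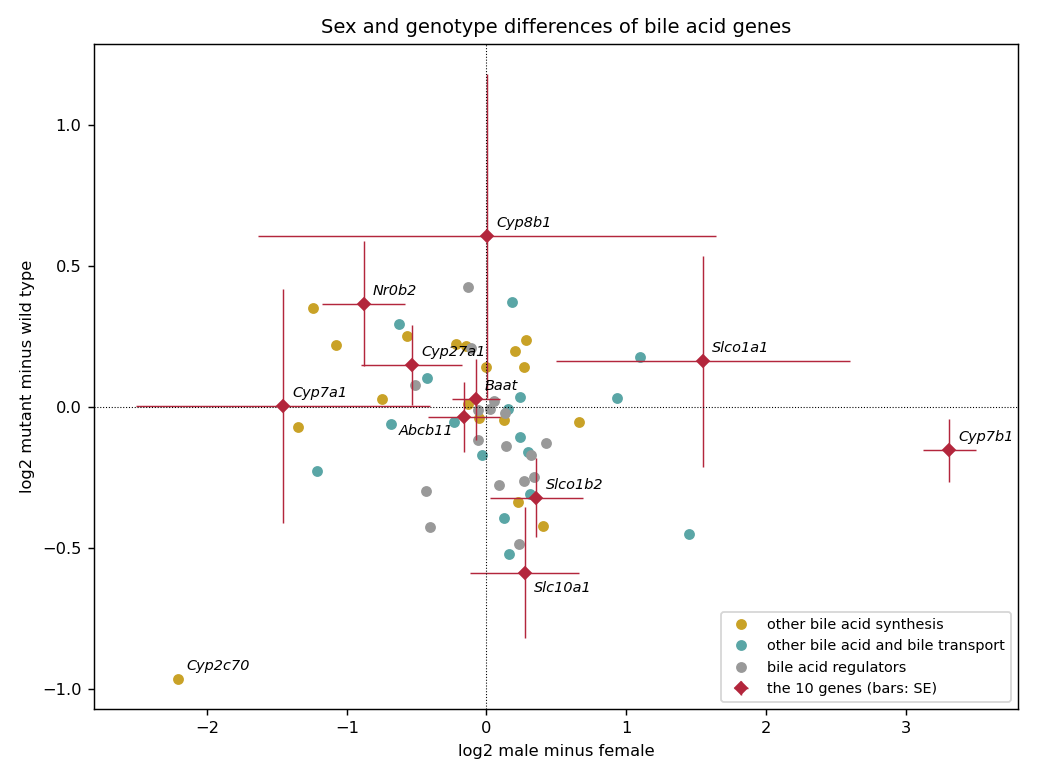
Log2 difference of male minus female (x axis) against log2 ratio of mutant over wild type (y axis) for the 10 genes (diamonds, bars are SE) and the genes of 3 further lists (circles). Cyp7b1 lies far to the right at 3.31, and Cyp2c70 lies at the lower left, where it did not pass in either comparison.

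Genes whose levels followed a bile acid gene most closely were found by the root mean square difference of centred log2 levels over the 8 livers, among 11836 genes with a symbol. For Cyp7a1 the nearest were Msmo1, a cholesterol synthesis enzyme (0.562), Lrtm1 (0.582) and Gstt3 (0.600), against a Cyp7a1 SD of 1.28. Msmo1 read 13.27 to 14.04 in the 4 females and mutant male 3 read 13.58, with the other 3 males at 12.08 to 12.53. For Cyp8b1 they were H1f5 (0.373), Enho (0.395) and Serpina3n, an acute phase gene (0.451). For Cyp7b1 they were the complement gene C6 (0.258), the heme synthesis gene Alas2 (0.282) and 4930432K21Rik (0.403). For Slco1a1 they were Olfr1535 (0.629) and the complement genes C8b (0.736) and C8a (0.808). For Nr0b2 they were Eif3e (0.172), Hspa13 (0.178) and Postn (0.189). These likenesses rest on 8 livers that share arrays and are descriptions only.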

How the data were processed

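Per the submitters' processing notes, arrays were read with Agilent Feature Extraction 10.7.3.1. Per the file headers, the deposited array files hold a linear intensity per spot and channel (median signals of spot and background, and a processed signal). The deposited series matrix holds log2 values whose direction and centring are not stated. Its column medians ran from -0.0135 (wild type 1) to 0.015 (wild type 4), and its ratios per array correlated with those used here at 0.829 to 0.953. Per the file headers, further columns of other kinds mark spots as well above background, saturated or outlying. Of the array columns, 56 were not used here.

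Median signals were corrected with normexp (offset 50) and loess-normalized within arrays in limma 3.58.1 (R 4.3.3, data.table version 1.17.8, jsonlite 2.0.0). Outlying spots were left out, controls got no weight, and the mean over the spots of each probe was taken. A probe was kept if 4 or more of the 8 livers exceeded background (22025 probes, of which 21 lacked a value on an array and were dropped), and a gene was represented by its probe of highest mean intensity. Symbols came from RefSeq accessions. Genotype was fitted to the 4 ratios with a dye term, and genotype by sex with a coefficient per sex, which leaves 1 residual degree of freedom. Sexes, never on the same array, were set against each other in limma's separate-channel model on Aquantile-normalized values, with a within-spot correlation of 0.793. P-values were Benjamini-Hochberg adjusted over 17510 genes. Livers of the same number shared an array, which pairs them, and their deviations from the group means correlated at 0.686, 0.176, 0.56 and 0.646. These means pool the sexes, and both livers of an array were of the same sex. Sex and array therefore cannot be told apart in these correlations. No 2 livers had identical signals. The number of arrays limits the precision. The fits were run on simulated data in which every gene had the same chance spread. In these livers the spread differed between genes, so that run does not test the fits on data like these.

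The 10 genes, the lists and the tests were chosen with earlier results of these data known. Named besides the 10 are the 3 genes with the smallest genotype p in each of 3 pathway lists (1 of them is not reported here), any that passed for sex, and the 3 genes most like Cyp7a1, Cyp8b1, Cyp7b1, Slco1a1 and Nr0b2. Figures were drawn with matplotlib 3.10.9 and pandas 2.3.3 under Python 3.11.15.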

Additional observations from a re-analysis of the deposited data

Results flagged for a closer look

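In 44 groups of 4 livers (each probe of the 10 genes by genotype and by sex), 4 had a liver whose gap to its neighbour exceeded Dixon's 95% critical value, taken as a share of the group's range. Chance flags about 1 in 20 groups. Among wild types, wild type 1 stood above the others for Nr0b2 (8.65 on the log2 scale) and wild type 2 below them for Slco1a1 (6.97). Among females, wild type 2 stood below the others for Cyp8b1 (7.03). Among mutants, mutant 4 stood below the others for the dimmer Slc10a1 probe (10.2).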

How the results depend on the processing

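Without arrays 1 to 4 in turn, the genes called ran from 0 to 1517 by genotype (1517 without array 4), from 77 to 1245 by sex (1245 without array 2) and from 0 to 4 for genotype by sex (the last with no dye term). In these fits the lone array of a sex or dye order is assumed to vary like the others, and the sex fits keep the within-spot correlation of all 4 arrays. Fitted log2 ratios by genotype that changed sign ran from -0.669 to 0.677 for Cyp7a1, -0.208 to 1.42 for Cyp8b1, -0.154 to 0.0819 for Abcb11, -0.416 to 0.739 for Slco1a1 and -0.136 to 0.189 for Baat. By sex, Cyp8b1 ran from -0.325 to 0.334. For genotype by sex, the values that turned were Cyp27a1 (0.215 and 0.0606 without arrays 1 and 3), Slco1b2 (-0.208 and -0.244 without arrays 1 and 3), Cyp8b1 (-0.13 and -1.1 without arrays 2 and 4), Slc10a1 (0.366) and Slco1a1 (-1.31) without array 2, and Abcb11 (0.211) without array 4. By genotype, 1 gene passed with no filter on dim probes and 1 with no dye term, in both cases Pus1. With no replicate block 3 passed, and with single channels and the array as a random term 1501, and 0 of the 10 bile acid genes were among either. By sex, 2070 passed with array means, 3729 with 8 single livers and 5959 with 7. With median scaling 4575 passed, 59 higher and 4516 lower in males, against 18 and 19, and the median of all genes moved to -0.505. Cyp7b1 (2.67) and Slco1b2 (-0.108) lay above that median, the latter turned below 0. Cyp8b1 by sex, near 0, turned to -0.46 with processed signals, -0.0455 with quantile normalization, -0.499 with median scaling, -0.48 with the series matrix and -0.567 with 7 livers. Slc10a1 by sex turned to -0.0373 as a mean over probes. With its dimmer probe, chosen after seeing the data like the 7-liver and 8-liver fits, it turned to 0.085 by genotype, -0.349 by sex and 0.0446 for genotype by sex. The causes of these changes were not tested. Of the single-gene values recomputed, 315 kept direction and call, 30 changed sign and 17 passed where they had not. The pairing by array is part of the design. With 4 arrays even Pus1, detected in wild types only, missed the threshold by genotype (adjusted p = 0.0549).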
